A study of Mus musculus with 16 samples.

Results

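The gene expression of WT MSC was compared with that of WT MC38 tumors in the 2 libraries labelled WT MSC and the 3 libraries labelled WT tumor, from a series of 16 mouse RNA-seq libraries of bone marrow, MSC and tumor. Of the 55536 genes in the count table, 15748 passed a filter on low counts in these 5 libraries, and those are the genes tested. They held 99.9% of the counts, and 26293 of the other genes had no count in any of the 5 libraries. Both groups carry the genotype label KLF WT, which the series sets against a genotype labelled KLF K74R. The titles and columns of the latter read KO, so the labels name that genotype in 2 ways, and it is called K74R here. The MSC samples have no further label: the abbreviation is not expanded, and organ of origin, culture, passage, age and treatment remain unstated. The tumors grew from MC38, a mouse line labelled as colon adenocarcinoma cells, and had a volume of at most 1000 mm3. Their genotype label is that of the mouse, so the counts of a tumor mix transcripts of the MC38 line with those of host cells. In the count table the WT tumors are marked with an R and WT MSC with KCF, and neither mark is explained. No label says that replicates came from separate mice or cultures, so the p-values reflect nothing beyond the spread among these 5 libraries, which may be technical. The groups differ in tissue, in the presence of a tumor line and in anything else that separates an MSC sample from a tumor, and these cannot be told apart.

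In this field the abbreviation MSC commonly stands for mesenchymal stromal cells, plastic-adherent cells that can give rise to bone, cartilage and fat, secrete collagen and other matrix, and supply blood-forming cells with the chemokine Cxcl12, stem cell factor and other signals. MC38 tumors are used in immunology because T cells and natural killer cells enter them. Interferons from those lymphocytes act on tumor cells and macrophages and induce antiviral genes, chemokines and the machinery that shows peptides on MHC class I. A bulk library adds up the RNA of all cells in the sample, so fewer cells of a type and less RNA per cell cannot be told apart.

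Total counts were 17104435 and 15965993 in the MSC libraries and 18344397, 18923751 and 16817282 in the tumor libraries. Levels are given as CPM, the count of a gene relative to the scaled total count of its library. A count of 0 allows a level of up to 3 counts, which in single libraries correspond to 0.148 to 0.203 CPM, counting error alone. Over a whole group the same limit was 0.0965 CPM for MSC and 0.0516 CPM for tumor. The MSC libraries differed from each other more than the tumor libraries did: the chi-square of the counts per degree of freedom was 51.4 for the MSC pair and 6.86 to 13.4 for the tumor pairs. None of these pairs agreed within sampling noise. Mitochondrial transcripts took 1.87% and 1.47% of the MSC counts and 3.14% to 3.26% of the tumor counts. K74R libraries (2 of MSC and 3 of tumor, none of them in the fit) are given beside the WT values where they bear on a result.

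A gene is called different, and named higher in a group, where edgeR's quasi-likelihood test gave a Benjamini-Hochberg adjusted p of at most 0.05. Log2 fold changes are MSC over tumor, so positive values mean higher in MSC. By this rule 11164 genes (70.9%) differed, 5324 of them (33.8%) higher in MSC and 5840 (37.1%) higher in tumor. With at least 4-fold difference the numbers were 2196 (13.9%) and 2029 (12.9%). The libraries of the groups did not overlap in 12973 genes (82.4%). The median log2 fold change over all genes tested was -0.09. Counts were 0 in both MSC libraries for 470 genes tested and 0 in all 3 tumor libraries for 94. With library size alone as the scaling, the median moved to -0.27 and the share of calls that were higher in MSC from 47.7% to 40.9%. With such a background, a gene list that differs in most of its members is told from the rest only by how one-sided or how large its differences are. Members of 45 lists were therefore read against these shares, and their counts are descriptions. A member whose counts are 0 in a group passed the filter through the other group alone, so it could only differ in that direction.

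**Figure D1:**
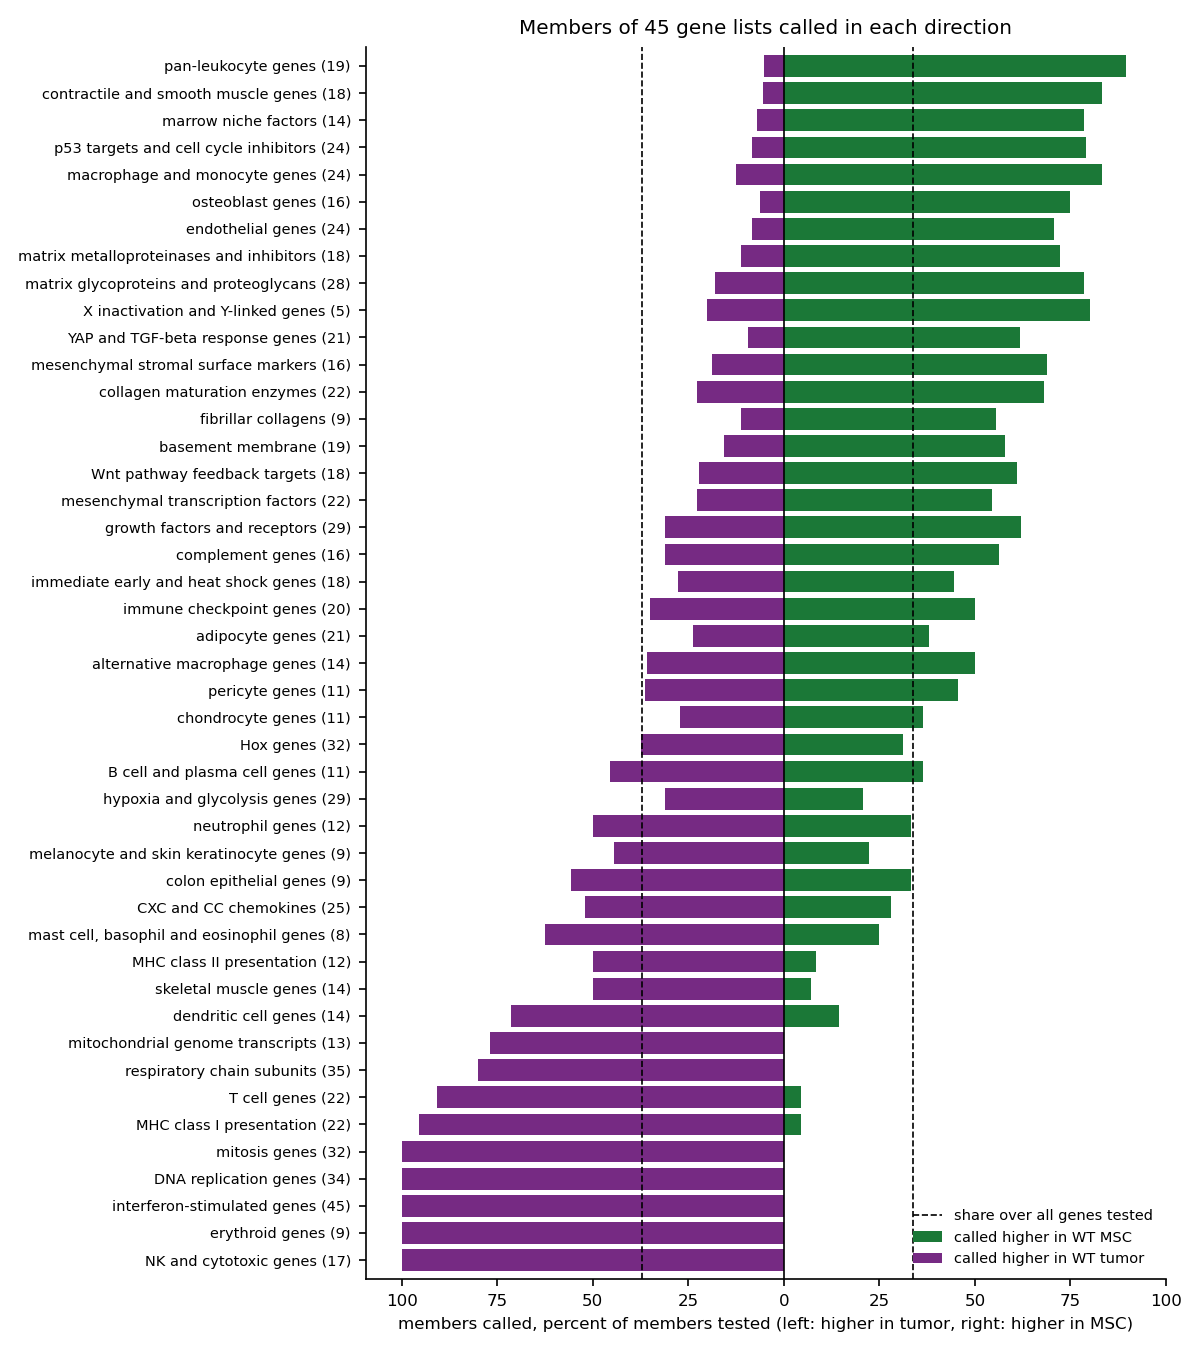
Share of the tested members of each of 45 gene lists that was called higher in WT MSC (right) or in WT tumor (left), in percent, with the number tested in parentheses and dashed lines at 33.8% and 37.1%, the shares over all genes tested. All tested members of the mitosis, DNA replication, interferon-stimulated, erythroid and NK lists stand on the tumor side, and leukocyte, contractile, niche and p53 lists stand mostly on the MSC side. Of the NK and erythroid members tested, 12 and 3 had no count in MSC and could only stand on the tumor side.

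The labels were checked against marker genes first. Among mesenchymal transcription factors, 12 of 22 tested were higher in MSC and 5 in tumor, with a median log2 fold change of 1.55. Prrx1, a homeobox factor of limb and stromal mesenchyme, stood at 249 and 284 CPM in the MSC libraries and 26.03, 22.98 and 23.2 CPM in the tumor libraries (log2 fold change 3.46, SE 0.12, edgeR adjusted p = 2.57e-06). Snai2 and Foxc1, other factors of mesenchymal cells, were also higher in MSC, at 102 and 66.9 against 7.67, 5.87 and 8.07 CPM and at 65.97 and 82.9 against 11.3, 12.6 and 9.68 CPM. Both libraries of MSC were above all 3 tumors for these factors. Twist2 went the other way, at 0.0615 and 0.406 CPM in MSC and 8.47, 7.79 and 7.12 CPM in tumors, as did Osr1 at 22.7 and 9.75 against 74.4, 67.96 and 48.9 CPM. Twist1 stood at 21.4 and 22.7 CPM in MSC and 22.6, 20.1 and 20.98 CPM in tumors and did not pass the test.

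Surface markers used to recognise mesenchymal stromal cells were split. Higher in MSC were 11 of 16 tested, a number that was 7 without tumor 2 or without tumor 3. With library size alone it was 8. The members higher in MSC included Pdgfrb at 192 and 293 against 117, 116 and 78.8 CPM, Eng at 72.98 and 225 against 30.4, 33.3 and 31.4 CPM and Nt5e, the ectoenzyme CD73, at 18.2 and 23.6 against 5.19, 4.69 and 5.23 CPM. Vcam1, an adhesion molecule of marrow stroma, was higher in tumor at 672, 597 and 573 CPM against 87.5 and 124 CPM in MSC, and Pdgfra and Cd44 were higher in tumor too, with log2 fold changes of -0.75 and -0.7. Pdgfra did not pass without MSC 1 or without tumor 1 or 2. Thy1 stood at 9.22 and 51.4 CPM in the MSC libraries and 18.9, 19.8 and 26.8 CPM in the tumors, so the MSC libraries lay on both sides of the tumors. Without MSC 2 its log2 fold change was -1.25 (edgeR adjusted p = 0.00247). Lepr, a marker of stromal cells around marrow sinusoids, was low in both groups, at 2.64 and 2.24 and 1.11, 2.07 and 2.004 CPM, where WT bone marrow had 27.7, 78.6 and 64.2 CPM.

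For the tumors, the defining genes of colon epithelium were at or near 0. Only 9 of 28 colon epithelial genes passed the filter. Epcam, a surface glycoprotein of epithelia, stood at 0.0504, 0.592 and 0.501 CPM, the keratin Krt8 at 0.151, 0.345 and 0.0557 CPM and Vil1 of the intestinal brush border at 0.403, 0.345 and 0.501 CPM. Cdx2, the intestinal homeobox factor, had no count in any of the 5 libraries. Cdh1, which encodes E-cadherin, was higher in tumor (edgeR adjusted p = 1.71e-04) but reached only 3.78, 4.69 and 7.51 CPM there and 0 and 0.0677 CPM in the MSC libraries. The summed level of the list was 13.4, 14.5 and 16.8 CPM in the tumors and 5.35 and 13.1 CPM in MSC.

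Extracellular matrix genes were mostly higher in MSC. Among glycoproteins and proteoglycans, 22 of 28 tested were higher in MSC, 18 of them at least 4-fold, with a median log2 fold change of 2.32. Thbs1, which encodes the matricellular protein thrombospondin-1, stood at 8267 and 8780 CPM in the MSC libraries and 48.3, 73.7 and 76.3 CPM in the tumor libraries (log2 fold change 7, SE 0.24, edgeR adjusted p = 2.61e-06). Fn1, which encodes fibronectin, reached 9628 and 10713 CPM in MSC and 2374, 2448 and 1458 CPM in tumors. Bgn at 2716 and 3142 against 78.5, 104 and 94.8 CPM and Fmod at 992 and 889 against 0.101, 0.395 and 0.167 CPM, both small leucine-rich proteoglycans, were far apart without overlap. Dcn and Lum, which encode the related proteoglycans decorin and lumican, showed the opposite order. Dcn stood at 1.54 and 1.897 CPM in MSC and 265, 342 and 166 CPM in tumors (log2 fold change -7.24, SE 0.42, edgeR adjusted p = 1.11e-05). Lum had 0 counts in both MSC libraries and 42.9, 87.9 and 44.5 CPM in the tumors, at least 605-fold lower in MSC when 3 counts over the group are taken as the limit (edgeR adjusted p = 7.35e-05). The small leucine-rich proteoglycans thus divided between the groups, biglycan and fibromodulin in MSC and decorin and lumican in the tumors.

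Fibrillar collagens divided as well. Col1a1 stood at 2126 and 1056 CPM in the MSC libraries and 279.8, 198 and 159.7 CPM in the tumor libraries, and Col1a2 at 3611 and 2253 against 125, 79.6 and 75.9 CPM (log2 fold changes 2.9 and 4.96, edgeR adjusted p = 2.55e-04 and 1.40e-05). Col5a2 was higher in MSC by 4.85 on the log2 scale. Col3a1 did not pass the test, at 1627 and 1325 CPM in MSC and 2491, 2372 and 1146 CPM in tumors, but was higher in tumor without tumor 3 (log2 fold change -0.70, edgeR adjusted p = 0.0131) and with the replicate numbers as a block (-0.74, adjusted p = 0.0098). Nor did Col5a1 pass at 706 and 499 and 649.8, 679 and 520.5 CPM. Col5a3 was higher in tumor, at 297, 255 and 237 CPM against 8.73 and 14.02 CPM. Enzymes that cross-link or fold collagen were higher in MSC for 15 of 22 members, with a median log2 fold change of 0.61. The number was 11 with library size alone, with the replicate numbers as a block, without tumor 2 or without tumor 3. Without MSC 2 the median was 0.29. The copper-dependent cross-linking enzyme Lox stood at 3811 and 3070 CPM in the MSC libraries and 16.7, 5.47 and 7.903 CPM in the tumor libraries (log2 fold change 8.41, SE 0.49, edgeR adjusted p = 1.20e-05). Both MSC libraries were far above all tumors, of which tumor 1 was the highest. Its relative Loxl2 stood at 257 and 384 against 10.3, 4.49 and 6.29 CPM. Plod2, which hydroxylates collagen lysines, was higher in tumor at 513, 568 and 391 against 136 and 213 CPM. Of 19 basement membrane genes 11 were higher in MSC and 3 in tumor, and without MSC 2 the number in tumor was 6. Col4a1 stood at 436 and 1302 CPM in MSC and 648, 720.0 and 628 CPM in tumors. Without MSC 2 the log2 fold changes of Col4a1 and its partner chain Col4a2 were -0.61 and -0.52, and without MSC 1 they were 0.95 and 1.04, all called.

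Proteases and their inhibitors leaned to MSC, with 13 of 18 tested members higher there and 2 in tumor, or 1 in tumor without tumor 1 or without tumor 2. Mmp13, an interstitial collagenase of bone and cartilage, stood at 1162 and 2268 CPM in the MSC libraries and 15.8, 13.4 and 15.9 CPM in the tumor libraries (log2 fold change 6.82, edgeR adjusted p = 4.95e-06). Timp3, a matrix-bound inhibitor of metalloproteinases, stood at 967 and 932 CPM in MSC and 12.3, 14.4 and 13.6 CPM in tumors. Mmp14, a membrane-bound activator of other members, did not pass the test, at 343 and 435 and 397, 435 and 313 CPM.

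Secreted signals of the marrow niche were mostly higher in MSC. Cxcl12, the chemokine that holds blood-forming cells in marrow, stood at 5091 and 8906 CPM in the MSC libraries and 6.204, 4.69 and 6.23 CPM in the tumor libraries (log2 fold change 10.25, SE 0.33, edgeR adjusted p = 2.27e-06). MSC 2 was the higher of the MSC libraries and the groups were far apart. WT bone marrow, given for scale, had 316, 907 and 744 CPM, below both MSC libraries. Kitl, which encodes stem cell factor, stood at 734 and 667 against 232, 266 and 160.2 CPM, and Csf1, the growth factor of macrophages, at 825 and 868 against 129, 113 and 139 CPM. Angpt1, a ligand of an endothelial receptor, was higher in tumor, at 125, 112 and 87.5 against 81.6 and 77.8 CPM, but did not pass the test without MSC 2 or without tumor 1 or 2. Of 14 niche factors 11 were higher in MSC, and their median log2 fold change was 1.77.

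Growth factors and their binding proteins showed a similar range. Igf1 stood at 881 and 449 CPM in the MSC libraries and 5.8, 3.6 and 6.46 CPM in the tumor libraries (log2 fold change 6.97, edgeR adjusted p = 9.26e-06). Igfbp5, a binding protein of insulin-like growth factors, stood at 1718 and 2418 against 6.46, 4.73 and 8.18 CPM and Igfbp4 at 2515 and 3118 against 654, 886 and 575 CPM. Fgf2 was higher in MSC at 68.2 and 100.9 against 1.61, 1.13 and 1.45 CPM, while the receptor Fgfr1 was higher in tumor at 489.9, 512 and 487 against 99.6 and 201 CPM. Hgf and its receptor Met were both higher in tumor, Hgf at 175, 195 and 128 against 39.2 and 10.7 CPM and Met at 53.01, 63.5 and 62.9 against 7.19 and 23.1 CPM.

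Of 18 genes tested in a list of Wnt pathway feedback targets, which also holds the antagonist Sfrp1, 11 were higher in MSC and 4 in tumor. The median log2 fold change was 4.81 (4.61 with the 3 members at 0 in a group set to their bound). Wnt ligands stabilise beta-catenin, which acts on DNA through Lef1 and Tcf7, and many targets feed back on the pathway. Rspo2, which encodes an R-spondin that potentiates Wnt receptors, is not in this list. It had 516 and 328 CPM in MSC and 0 counts in all 3 tumors, at least 8170-fold higher against 3 counts over the tumor group (edgeR adjusted p = 1.35e-05). Sfrp1, a secreted Wnt antagonist, stood at 1239 and 1250 CPM in the MSC libraries and 0.706, 1.48 and 1.84 CPM in the tumor libraries (log2 fold change 9.85, SE 0.29, edgeR adjusted p = 1.98e-06), and Dkk3 at 383 and 343 against 0.403, 0.986 and 0.445 CPM. Nkd2, an intracellular antagonist, stood at 112 and 256 against 0.0504, 0.0493 and 0.111 CPM. Lef1 stood at 0 and 0.0677 CPM in MSC and 23.8, 26.98 and 32.9 CPM in the tumors, and Tcf7 at 0.984 and 0.474 and 35, 37.1 and 38.8 CPM. Axin2, the feedback target most often used as a readout of the pathway, was low in both, at 0.861 and 1.69 and 1.77, 1.78 and 2.45 CPM, and did not pass the test (edgeR adjusted p = 0.173). Nog, which encodes the bone morphogenetic protein antagonist noggin, and Id4, a target of those proteins, were also higher in MSC, Nog with 20.4 and 20.5 CPM in MSC and no count in the tumors, and Id4 with 190.1 and 263 against 0, 0.0493 and 0 CPM.

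Genes of the skeletal lineages were partly on in MSC. Of 16 osteoblast genes tested, 12 were higher in MSC, 11 of them at least 4-fold, with a median log2 fold change of 4.32 (the same with the 1 member at 0 in a group set to its bound). Alpl, the alkaline phosphatase of mineralising cells, stood at 388 and 374 CPM in the MSC libraries and 0.0504, 0.0986 and 0 CPM in the tumor libraries. Sp7, the osteoblast transcription factor osterix, stood at 87.2 and 84.7 against 0, 0 and 0.167 CPM (edgeR adjusted p = 3.24e-06). Ibsp, which encodes bone sialoprotein, stood at 37.3 and 31.6 against 0, 0 and 0.0557 CPM, and Tnfrsf11b, the osteoclast inhibitor osteoprotegerin, at 329 and 374 against 0.353, 0.0986 and 0.111 CPM. Runx2, which acts before Sp7 in the lineage, did not pass the test, at 64.8 and 64.1 CPM in MSC and 66.1, 67.96 and 66.5 CPM in tumors. Bglap, the late marker osteocalcin, was not tested, with 0.676 and 0.339 CPM in MSC. Phex, an enzyme of osteocytes, was higher in tumor at 20.8, 20.02 and 13.6 against 0.676 and 0 CPM. Alpl, Sp7 and Ibsp were thus on in MSC, while Bglap stayed below 1 CPM. Bglap2, a related member of the list, passed the filter, and how reads shared by such genes were counted is not stated.

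Cartilage genes gave no uniform picture. Col2a1 and Col10a1, collagens of resting and of hypertrophic cartilage, were higher in MSC, among 4 of 11 cartilage genes tested, Col2a1 at 976 and 358 against 1.06, 1.48 and 0.779 CPM and Col10a1 at 47.6 and 81.96 against 0.0504, 0.247 and 0.223 CPM. Acan, which encodes the cartilage proteoglycan aggrecan, was below the filter, at no more than 0.197 CPM. Sox9, the cartilage transcription factor, was higher in tumor at 109, 129 and 97.5 against 29.9 and 32.3 CPM, and so was Hapln1, which links hyaluronan to proteoglycans, at 33.2, 29.6 and 15.4 against 0 and 0.0677 CPM. Among adipocyte genes Pparg and Cebpa, the transcription factors of the lineage, were higher in MSC, at 37.9 and 48.4 against 8.12, 5.57 and 6.07 CPM and 216 and 212 against 13.3, 11.7 and 9.18 CPM. Adipoq and Plin1, markers of the mature fat cell, did not pass the test. Adipoq stood at 8.73 and 15.9 CPM in MSC and at 16.3, 0.197 and 4.23 CPM in tumors 1, 2 and 3, so the tumors lay on both sides of the MSC libraries. Adipocyte genes higher in tumor numbered 5 of 21, and those higher in MSC 8, or 5 without tumor 3. The number higher in tumor was 3 without MSC 1, MSC 2 or tumor 1, 8 with the replicate numbers as a block and 9 with no filter.

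Contractile genes were almost all higher in MSC: 15 of 18 members passed in that direction, 10 of them at least 4-fold, with a median log2 fold change of 3.03. Acta2, the smooth muscle actin of myofibroblasts, stood at 1763 and 2982 CPM in the MSC libraries and 7.92, 7.398 and 8.46 CPM in the tumor libraries (log2 fold change 8.21, SE 0.27, edgeR adjusted p = 2.35e-06). The tumors were near each other and MSC 2 was above MSC 1. Myl9, a myosin light chain, stood at 497 and 818 against 1.97, 3.65 and 3.01 CPM and Cnn1, which encodes calponin, at 98.9 and 117 against 0.151, 0.148 and 0.334 CPM. Des, which encodes the muscle filament desmin, was higher in tumor, at 8.88, 7.74 and 9.85 against 2.89 and 4.94 CPM. Targets shared by the YAP and TGF-beta pathways were higher in MSC for 13 of 21 members. Ccn2, the connective tissue growth factor, stood at 1403 and 2610 CPM in the MSC libraries and 7.52, 10.6 and 6.23 CPM in the tumor libraries (log2 fold change 7.93, SE 0.36, edgeR adjusted p = 4.87e-06). Ankrd1, another target of YAP, stood at 56.7 and 194 CPM in MSC and 81.8, 72.4 and 142 CPM in tumors and did not pass, except without MSC 1 (log2 fold change 0.96, edgeR adjusted p = 0.0277).

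Serum response factor binds the CArG box, a sequence in front of many contractile genes. Promoters of the list were read from RefSeq on GRCm38.p6 as 250 bases before to 50 after each start, for the 15 members that the promoter table holds (18 promoters). Actg2, Tagln and Myh11 are not among them. The CArG box was searched as CCWWWWWWGG, where W is A or T, and looser forms of it were not searched. It was found, counting both strands, in 2 of these 18 promoters (11.1%) and in 1.6% of all 32851 promoters. The 2 promoters are shown from the 250 bases before the start, 5′ to 3′ on the strand of the gene, with the box in capitals, because they are the list members in which the motif stands within this window. A match is a description of the sequence and not a measured binding site.
Myl9: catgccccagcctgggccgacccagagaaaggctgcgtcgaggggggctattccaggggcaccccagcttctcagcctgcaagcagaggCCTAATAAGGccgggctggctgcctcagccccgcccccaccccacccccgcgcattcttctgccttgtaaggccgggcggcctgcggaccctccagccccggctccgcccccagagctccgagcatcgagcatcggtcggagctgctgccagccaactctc
Filip1l: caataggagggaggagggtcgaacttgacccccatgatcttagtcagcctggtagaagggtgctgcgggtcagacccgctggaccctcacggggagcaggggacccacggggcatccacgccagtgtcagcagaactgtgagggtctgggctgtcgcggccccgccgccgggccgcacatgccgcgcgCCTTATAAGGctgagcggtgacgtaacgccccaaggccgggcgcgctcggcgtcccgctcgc
The Myl9 stretch lies at chr2:156775214-156775463 and the Filip1l stretch at chr16:57548992-57549241, both on the plus strand of GRCm38.p6. The box begins 161 bases before the start of Myl9 and 62 bases before the start shown for Filip1l, which has 2 promoters listed. Filip1l, which encodes a filamin-interacting protein, stood at 131 and 127 CPM in the MSC libraries and 48.9, 46.7 and 55.5 CPM in the tumor libraries and was higher in MSC. It is named for its promoter, after its values were seen.

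**Figure D2:**
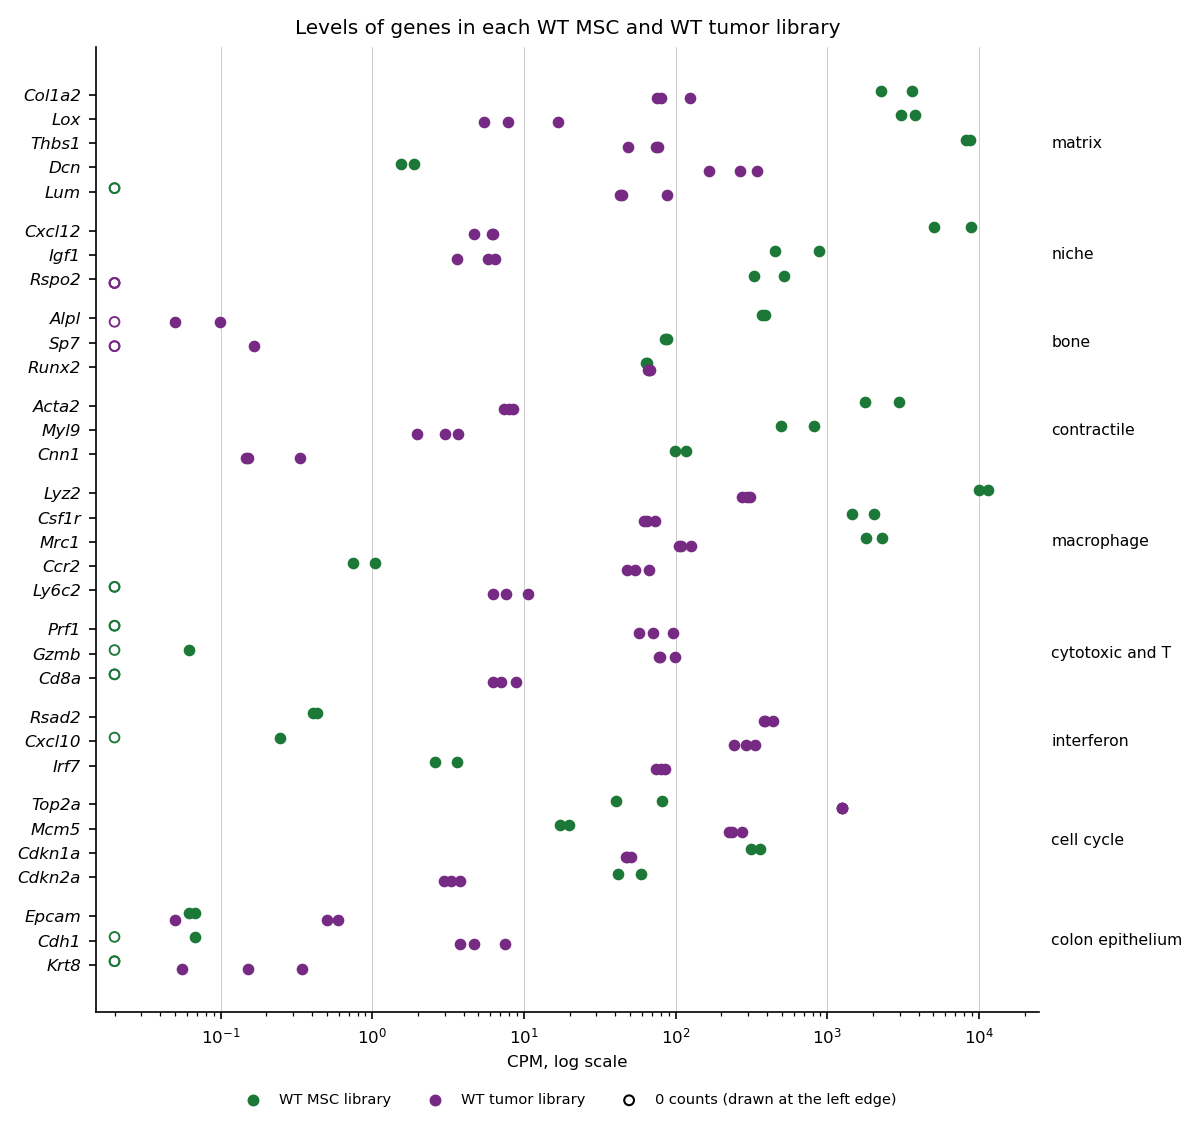
CPM of selected genes on a log axis, 1 point for each WT MSC library (green) and WT tumor library (purple), open where the count was 0. The groups are apart for Cxcl12, Lox, Acta2 and Lyz2 on the MSC side and for Rsad2, Prf1 and Lum on the tumor side, and they coincide for Runx2.

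Macrophage genes were abundant in the MSC libraries. Of 24 macrophage and monocyte genes, 20 were higher in MSC, 18 of them at least 4-fold, with a median log2 fold change of 2.57. Their summed level was 31294 and 25949 CPM in MSC and 2288, 2415 and 2324 CPM in the tumors. Lyz2, the lysozyme of macrophages and neutrophils, stood at 11405 and 10074 CPM in the MSC libraries and 276, 294 and 311 CPM in the tumor libraries (log2 fold change 5.18, SE 0.13, edgeR adjusted p = 1.49e-06). The groups did not overlap, and Lyz2 was among the 10 most abundant transcripts of MSC per length. Csf1r, the receptor of the macrophage growth factor, stood at 2021 and 1454 against 61.8, 73.5 and 64.6 CPM and Adgre1, the surface antigen F4/80, at 1202 and 971 against 93.7, 86.95 and 89.5 CPM. The scavenger receptors Mrc1 and Stab1 stood at 2304 and 1808 against 108, 126 and 105 CPM and 2726 and 2327 against 65.5, 62.7 and 58.7 CPM. Ptprc, the leukocyte antigen CD45, was itself higher in MSC, at 433 and 218 against 128, 109.9 and 133 CPM, and 17 of 19 genes shared by leukocytes were. Both groups thus held leukocyte transcripts, and their part in the matrix, niche and bone results was not tested.

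The 3 macrophage and monocyte genes higher in tumor, of 24 tested, were Ly6c2, Ccr2 and Fcgr1. Ly6c2, a surface antigen of inflammatory monocytes, had 0 counts in both MSC libraries and 7.57, 6.26 and 10.7 CPM in the tumors, at least 84.7-fold lower in MSC. Ccr2, the receptor that draws monocytes from blood, stood at 1.05 and 0.745 CPM in MSC and 54.1, 47.7 and 66.95 CPM in tumors (log2 fold change -5.97, SE 0.27, edgeR adjusted p = 4.91e-06), while its ligand Ccl2 was also higher in tumor at 227, 151 and 229.5 against 26.9 and 17 CPM. Fcgr1, the high-affinity Fc receptor, was higher in tumor by 1.08 on the log2 scale. Among alternative macrophage genes 7 of 14 were higher in MSC and 5 in tumor. Arg1 and Nos2, which mark opposite states of activated macrophages by how they use arginine, were both higher in tumor, Arg1 at 73.4, 39.01 and 29.7 against 14.6 and 23.4 CPM and Nos2 at 12.7, 9.08 and 4.79 against 0.184 and 0.677 CPM. Without MSC 1 Arg1 did not pass (adjusted p = 0.0794). Complement genes were split, 9 of 16 higher in MSC and 5 in tumor, or 3 in tumor without tumor 3: Serping1, the inhibitor of its first component, stood at 897 and 1252 against 12.6, 12.3 and 13.6 CPM, whereas C3, its central component, was higher in tumor at 98.5, 103 and 91.7 against 9.96 and 16.8 CPM.

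Most lymphocyte genes were near 0 in MSC. Of 24 T cell genes 22 were tested and 20 were higher in tumor, with a median log2 fold change of -5.97 (-4.62 with the 10 members at 0 in a group set to their bound). Of 19 NK and cytotoxic genes 17 were tested, and all 17 were higher in tumor, with a median of -8.26 (-5.32 with 12 members at their bound). Those 12, and the 10 T cell members at their bound, had no count in MSC and could only be called higher in tumor. The summed level of the NK and cytotoxic list was 3.14 and 5.76 CPM in MSC and 294, 311 and 457 CPM in tumors. Prf1, which encodes the pore protein perforin, had no count in MSC and 57.8, 71.5 and 96.2 CPM in the tumors, at least 779-fold lower in MSC (edgeR adjusted p = 1.56e-05). Gzmb, the main killer granzyme, stood at 0.0615 and 0 CPM in MSC and 77.9, 78.8 and 99.8 CPM in tumors. Gzmf and Gzmg, granzymes of a cluster of near-identical genes whose reads may be shared, had no count in MSC and 57.5, 92.03 and 138 and 121, 171 and 246 CPM in the tumors. Tumor 3 was the highest of the 3 for each of these 4 genes. Cd8a, the co-receptor of killer T cells, stood at 8.83, 6.21 and 7.07 CPM in the tumors and 0 in MSC. Cd4 did not pass the test, at 0.861 and 1.83 and 1.46, 0.937 and 1.34 CPM, and Cd28, a costimulatory receptor, was the T cell gene higher in MSC, at 60.4 and 37.1 against 2.62, 2.22 and 3.34 CPM.

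Of 11 B cell and plasma cell genes tested 5 were higher in tumor and 4 in MSC. All 19 members of the list summed to 354 and 413 CPM in MSC and 208, 188 and 183 CPM in the tumors. However, 9 members had no count in either MSC library, and Ebf1 is also in the list of mesenchymal transcription factors. The sum is therefore no measure of B cells alone. Pax5, which encodes a B cell transcription factor, was at 26.6, 26.1 and 29.6 CPM in the tumors and 0 in MSC, while Ms4a1 of the B cell surface stood at no more than 0.724 CPM in any of the 5 libraries. The K74R tumors had 30.01, 24.3 and 29.4 CPM of Pax5.

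All 45 interferon-stimulated genes were higher in tumor, 37 of them at least 4-fold, with a median log2 fold change of -3.45 beside -0.09 over all genes. Their summed level was 6182, 5512 and 5213 CPM in the tumors and 833 and 775 CPM in MSC. Rsad2, which encodes the antiviral enzyme viperin, stood at 0.4304 and 0.406 CPM in the MSC libraries and 437, 386 and 383 CPM in the tumor libraries (log2 fold change -9.89, SE 0.20, edgeR adjusted p = 1.48e-06). The MSC libraries were close to the limit of detection and all 3 tumors far above it. Irf7, which amplifies interferon production, stood at 3.63 and 2.57 against 79.6, 74.5 and 84.8 CPM. Cxcl9 and Cxcl10, chemokines that recruit T cells, stood at 109, 111 and 90.4 and 292, 244 and 332 CPM in the tumors and at 0.123 and 0 and 0.246 and 0 CPM in MSC. Ifng, which encodes interferon gamma itself, had 1.21, 1.33 and 1.56 CPM in the tumors and no count in MSC.

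Interferon response factors bind repeats of GAAA, and a motif of 2 copies of GAAA separated by any 2 bases was searched on both strands of the 37 promoters of the 33 list members in the promoter table. It was present in 21 promoters (56.8%), against 3.4% of all promoters. The 3 members most abundant in tumor among those with the motif before the start are shown, because the whole list stood on the tumor side and more than 50% of its promoters hold this motif. In all 3 the match is on the strand opposite to the gene, so the capitals read as its reverse complement.
Gbp2: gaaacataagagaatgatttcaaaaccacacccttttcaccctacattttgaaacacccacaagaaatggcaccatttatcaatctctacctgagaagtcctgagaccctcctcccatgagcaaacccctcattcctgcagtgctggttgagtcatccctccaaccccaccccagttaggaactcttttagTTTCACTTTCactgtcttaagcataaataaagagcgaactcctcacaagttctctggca
Rsad2: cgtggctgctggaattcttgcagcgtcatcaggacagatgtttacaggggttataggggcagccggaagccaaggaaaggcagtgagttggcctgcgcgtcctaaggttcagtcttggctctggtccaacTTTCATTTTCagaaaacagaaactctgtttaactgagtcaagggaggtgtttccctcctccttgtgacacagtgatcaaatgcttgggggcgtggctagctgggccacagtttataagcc
Gbp3: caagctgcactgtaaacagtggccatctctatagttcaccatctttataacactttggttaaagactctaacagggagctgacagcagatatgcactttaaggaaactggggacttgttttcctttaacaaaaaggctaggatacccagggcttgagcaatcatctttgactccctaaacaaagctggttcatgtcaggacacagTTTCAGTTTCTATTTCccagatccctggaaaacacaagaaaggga
These 250 bases end at the start of each gene on GRCm38.p6, at chr3:142620413-142620662 and chr3:142559794-142560043 on the plus strand and at chr12:26456453-26456702 on the minus strand. The motif begins 59 bases before the start of Gbp2 and 120 before that of Rsad2. Gbp3 has 2 promoters listed, and in the promoter shown overlapping copies begin 45 and 39 bases before the start. Gbp2, a guanylate-binding protein, stood at 96.3 and 132 CPM in the MSC libraries and 549, 525 and 358 CPM in the tumor libraries, and Gbp3, named for its promoter after its values were seen, at 4.12 and 6.23 against 233, 203 and 182 CPM. Guanylate-binding protein genes have near-identical copies, and how shared reads were counted is not stated.

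Genes of antigen presentation on MHC class I were mostly higher in tumor. Of 22 such genes 21 were higher in tumor, though only 3 by 4-fold or more, with a median log2 fold change of -1.49. These genes too have near-identical copies. Tap1, a peptide transporter, stood at 35.1 and 33.8 against 285, 263 and 215 CPM, H2-K1, a heavy chain, at 391 and 488 against 1573, 1518 and 1265 CPM and B2m, the light chain, at 1063 and 1075 against 1356, 1406 and 1296 CPM. Their log2 fold changes were -2.89, -1.74 and -0.35, and B2m did not pass without tumor 1 or 2, or with the replicate numbers as a block (adjusted p = 0.0725). Of 12 class II genes tested 6 were higher in tumor, 1 in MSC and 5 did not pass, with a median log2 fold change of -0.7. Their summed level was 1540 and 894 CPM in MSC and 832, 789.6 and 638 CPM in the tumors. Both MSC libraries lay above all 3 tumors in the sum, although only 1 member was called higher in MSC, so the sum does not stand for the list. The K74R libraries overlapped, at 537 and 682 CPM in MSC and 872, 343 and 417 CPM in tumors. H2-Aa stood at 85.8, 73.7 and 50.1 CPM in the tumors and 16.8 and 10.1 CPM in MSC, while Ciita, the activator of the class, did not pass, at 2.46 and 2.91 and 5.95, 3.304 and 4.06 CPM, but did with library size alone (log2 fold change -0.92, adjusted p = 0.039) and without tumor 2 (-0.93, adjusted p = 0.0493). Among checkpoint genes Cd274, which encodes PD-L1, stood at 6.89 and 5.28 CPM in the MSC libraries and 33.5, 30.8 and 30.1 CPM in the tumor libraries (log2 fold change -2.38, SE 0.17, edgeR adjusted p = 2.81e-05). Its receptor Pdcd1 had 3.38, 2.91 and 2.56 CPM in the tumors and no count in MSC. Sirpa and Vsir, checkpoint receptors of myeloid cells, were higher in MSC, at 1652 and 1238 against 105, 96.8 and 121 CPM and 264 and 270.5 against 41.01, 35.2 and 35.8 CPM.

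Genes of DNA replication and mitosis stood on the tumor side. All 34 DNA replication genes tested were higher in tumor, 26 of them at least 4-fold, and all 32 mitosis genes, 30 of them at least 4-fold, with median log2 fold changes of -2.86 and -3.78. Top2a, the topoisomerase of dividing cells, stood at 81.6 and 40.4 CPM in the MSC libraries and 1247, 1246 and 1259 CPM in the tumor libraries (log2 fold change -4.37, SE 0.32, edgeR adjusted p = 3.15e-05). All tumors were far above both MSC libraries. Mki67, the antigen Ki-67, stood at 104 and 35.6 against 837, 752 and 811 CPM and Ccnb1, which encodes the mitotic cyclin B1, at 11.3 and 7.52 against 209, 215 and 241 CPM. Mcm5, a subunit of the replicative helicase, stood at 19.9 and 17.2 against 237, 225 and 274 CPM, while Pcna, the polymerase clamp that also serves DNA repair, was closer between the groups at 98.7 and 85.5 against 217, 215 and 246 CPM. Between the MSC libraries Mki67 and Top2a were higher in MSC 1 than in MSC 2. The 3 tumors lay close together for these genes.

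Inhibitors of the cell cycle were mostly higher in MSC. Of 24 p53 targets and cell cycle inhibitors 19 were higher in MSC. Cdkn1a, which encodes the inhibitor p21, stood at 313 and 359.5 CPM in the MSC libraries and 50.9, 47.2 and 47.97 CPM in the tumor libraries (log2 fold change 2.77, SE 0.11, edgeR adjusted p = 3.10e-06). Cdkn2a stood at 41.6 and 59.3 against 2.98, 3.798 and 3.28 CPM and Cdkn2b at 76.9 and 83.04 against 10.8, 10.7 and 7.07 CPM, neighbouring genes whose inhibitors act on the G1 kinases. Mdm2 and Ccng1, feedback targets of p53, stood at 156 and 116 against 35.5, 30.7 and 36.01 CPM and 687 and 716 against 139.9, 144 and 132 CPM. Trp53 itself did not pass the test, at 78.6 and 99.1 and 96.1, 86.9 and 97.9 CPM.

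Many mitosis genes carry the motif TTTGAA near their start, where repressor complexes of resting cells bind. It was found on either strand in 24 of 30 promoters (80.0%) of the 27 list members in the promoter table and in 17.9% of all promoters. In the 250 bases before the start alone the shares were 40% and 16%, so many of the list's copies lay in the 50 bases after the start. Top2a and Kif11, a motor of the spindle, are shown with the motif in capitals because Top2a was the member most abundant in tumor among those with the motif and both hold a copy just before the start. Mki67, also abundant in tumor, is not shown, and its copies begin farther away, at 116 and 98 bases before the start.
Top2a: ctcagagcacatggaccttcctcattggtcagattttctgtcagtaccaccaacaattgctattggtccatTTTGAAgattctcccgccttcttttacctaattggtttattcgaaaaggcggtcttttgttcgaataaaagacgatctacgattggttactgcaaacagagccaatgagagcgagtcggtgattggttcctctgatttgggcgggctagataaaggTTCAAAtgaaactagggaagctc
Kif11: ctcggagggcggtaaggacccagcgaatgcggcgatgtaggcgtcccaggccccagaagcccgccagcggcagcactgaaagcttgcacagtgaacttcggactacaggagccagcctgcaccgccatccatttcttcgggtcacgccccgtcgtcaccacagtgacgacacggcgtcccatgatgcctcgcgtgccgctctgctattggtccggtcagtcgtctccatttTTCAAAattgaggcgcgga
The Top2a stretch lies at chr11:99024190-99024439 on the minus strand, with copies beginning 179 and 23 bases before the start, and the Kif11 stretch at chr19:37376132-37376381 on the plus strand, with a copy 19 bases before it. Kif11, named for its promoter after its values were seen, stood at 17.8 and 6.299 CPM in MSC and 195, 195 and 192 CPM in tumors.

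Energy metabolism differed by smaller steps. Of 35 nuclear subunits of the respiratory chain 28 were higher in tumor and none in MSC, with a median log2 fold change of -0.71, and 10 of 13 mitochondrial transcripts were higher in tumor. Atp5b, a catalytic subunit of ATP synthase, stood at 472 and 553 against 1288, 1315 and 1369 CPM and mt-Co1 at 8421 and 6824 against 11812, 11699 and 11469 CPM. With DESeq2's size factors in edgeR, 1 respiratory chain gene was higher in MSC and 27 in tumor, and without MSC 2 these were 1 and 28. Hypoxia and glycolysis genes were split, 6 of 29 higher in MSC and 9 in tumor. The core ACGTG of the element bound by hypoxia-inducible factors was found on either strand in 20 of 39 promoters of this list (51.3%) and in 19.6% of all promoters. Adm and Vegfa, which encode secreted signals, were higher in MSC, at 71.6 and 124 against 2.47, 4.19 and 1.67 CPM and 179.8 and 276 against 70.2, 72.5 and 48.9 CPM. Gapdh and the lactate exporter Slc16a3 were higher in tumor, at 1832, 1853 and 1642 against 714 and 1394 CPM and 251, 239.7 and 200.1 against 36.1 and 113 CPM, though Gapdh did not pass with any of the 3 tumors left out. The MSC libraries differed within this list, with Pgk1 at 360.4 and 819 CPM and Ldha at 441 and 916 CPM in MSC 1 and 2. Ldha and Pgk1 did not pass, but without MSC 2 both were higher in tumor, with log2 fold changes of -1.23 and -1.07. Ldha was also called higher in tumor with library size alone (-0.81, adjusted p = 0.0335), with the replicate numbers as a block (-0.77, adjusted p = 0.0491), with limma-voom, with no filter and with all 16 libraries. The list's count higher in tumor was 19 without MSC 2 and 5 without tumor 1 or 2, and its count higher in MSC was 11 without MSC 1.

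Fth1 and Ftl1, the chains of the iron store ferritin, were among the most abundant transcripts per length in MSC and were higher there, at 6672 and 7391 against 1238, 1208 and 1150 CPM and 2404 and 2302 against 401, 344 and 317 CPM. Tfrc, which imports iron, was higher in tumor at 741, 861 and 1054 against 417 and 145 CPM. Hsp90ab1, a chaperone, and Ptma, a small chromatin-associated protein, were among the most abundant in tumors per length and higher there, at 3644, 3698 and 4286 against 1387 and 1584 CPM and 1628, 1689 and 1964 against 529 and 491 CPM.

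Endothelial genes depended on a single MSC library. Their summed level was 1233 CPM in MSC 1 and 4496 CPM in MSC 2, against 334, 367 and 379 CPM in the tumors. Pecam1, the junction antigen CD31, stood at 104 and 565 CPM in the MSC libraries and 44.8, 49.3 and 52.9 CPM in the tumor libraries and Cdh5, which encodes VE-cadherin, at 89.6 and 514 against 55.5, 69 and 69.01 CPM. Of 24 members 17 were higher in MSC. Without MSC 2 the number was 10 and the median log2 fold change 0.60 in place of 2.24. Cdh5 did not pass without tumor 3 (adjusted p = 0.0534). Esm1, a secreted proteoglycan of sprouting vessels, was high in both MSC libraries, at 547 and 972 against 10.04, 12.3 and 7.24 CPM, and Aplnr was higher in tumor, at 4.09, 4.64 and 10.7 against 0 and 0.0677 CPM. The niche chemokine Cxcl12 was also at the higher level in MSC 2, and the part of endothelial cells in that was not tested.

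Hox genes, which keep a record of position along the body, were on in different sets in the groups. Hoxd13 and Hoxb13, the most posterior members of their clusters, had no count in MSC and stood at 14.4, 13.96 and 14.4 and 6.81, 6.12 and 4.51 CPM in the tumors, at least 148-fold and 60.2-fold lower in MSC (edgeR adjusted p = 1.03e-05 and 7.97e-05). Hoxa13 stood at 0.615 and 0.339 against 6.15, 5.38 and 5.06 CPM. In MSC Hoxb4 was higher at 9.53 and 11.7 against 1.06, 1.23 and 1.39 CPM, Hoxb9 at 4.06 and 15.1 against 0.101, 0.197 and 0.445 CPM and Hoxc8 at 5.103 and 3.52 against 0.555, 0.247 and 0.612 CPM. Hoxa10 did not pass the test, at 20.2 and 29.4 and 20.7, 22.6 and 23.7 CPM, except without MSC 1 (log2 fold change 0.38, adjusted p = 0.0437). Not all posterior genes followed this order: Hoxc13, named after its values were seen, stood at 6.33 and 7.11 CPM in MSC and 0, 0 and 0.0557 CPM in the tumors (edgeR adjusted p = 2.70e-05). Over the 32 tested, 10 were higher in MSC and 12 in tumor, near the shares of all genes.

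**Figure D3:**
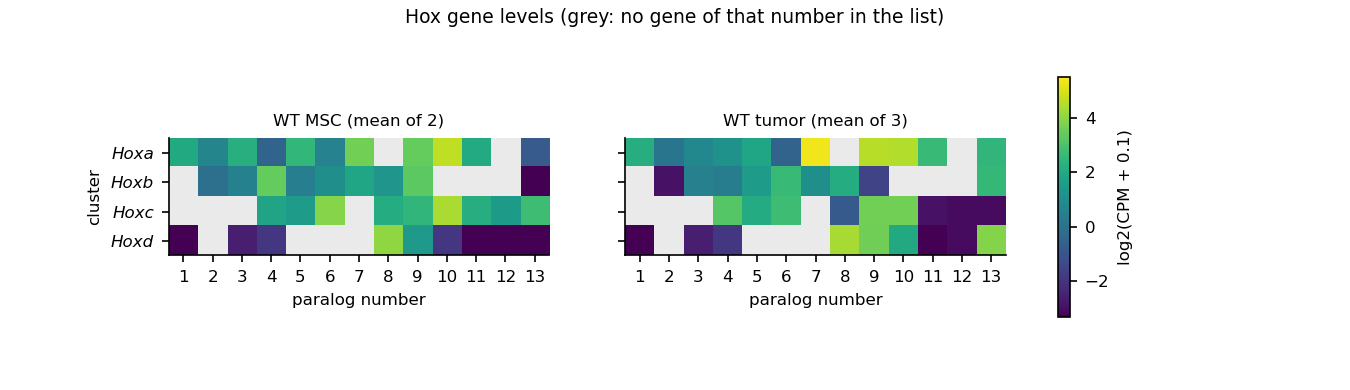
Mean level of each Hox gene in WT MSC and WT tumor, as log2(CPM + 0.1), by cluster (rows) and paralog number (columns), with grey where the list has no gene. Paralog 13 is on in Hoxa, Hoxb and Hoxd in the tumors and in Hoxc in MSC, and Hoxb4 and Hoxb9 are brighter in MSC.

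Several genes were on in the tumors and had no count in either MSC library. Tex13b and Rhox5, X-linked genes known from the testis and other reproductive tissue, stood at 154, 155 and 188 and 146, 150.2 and 158 CPM in the tumors, at least 1720-fold and 1570-fold lower in MSC (edgeR adjusted p = 2.89e-06 and 1.98e-06). Nxf3, an RNA export factor, stood at 73.6, 83.2 and 72.02 CPM and Cntn3, a neuronal adhesion protein, at 78.98, 79.1 and 75.9 CPM. Their spread over the 3 tumors was small, and the K74R tumors had 157, 158 and 157 CPM of Rhox5. The opposite set, with no count in the tumors, held Csmd1, a large complement-regulating membrane protein, at 79.3 and 69.4 CPM and Kng1, which encodes kininogen, at 23.1 and 87.98 CPM. Y-linked genes were present in both groups at different levels: Kdm5d stood at 41.4 and 36.6 against 3.63, 3.304 and 4.12 CPM and Ddx3y at 99.8 and 87.5 against 15.5, 13.3 and 17.6 CPM (log2 fold changes 3.39 and 2.59). Xist, the RNA of the inactive X, was at most 1.34 CPM in any of the 5 libraries.

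Globin, muscle and fat genes varied between the tumors, and where their transcripts came from was not tested. Hbb-bs, an adult beta-globin with a near-identical neighbour, stood at 451, 135 and 114 CPM in tumors 1, 2 and 3 and at 0 and 0.271 CPM in MSC, where WT bone marrow had 16599, 17197 and 22439 CPM. Myh4, a myosin of fast muscle, stood at 22.3, 0 and 6.4 CPM and Cfd, the adipsin of fat, at 42.9, 0.0493 and 10.5 CPM in the same order, with 0 CPM of Myh4 and 0.4304 and 0 CPM of Cfd in MSC. Both were called higher in tumor, but with either MSC library left out neither passed. Tumor 2 had the lowest level of muscle and fat genes, and without it 13 of 14 skeletal muscle genes tested were called higher in tumor in place of 7. Without tumor 1 or without tumor 3 only 7 were tested, and 3 of them were called higher in tumor. Of the same 14 genes, limma-voom called 2 higher in tumor and robust dispersion 4. The epidermal keratins were near 0: Krt14 stood at 0.303, 0.6905 and 0.334 CPM and Krt5 at 0 in the tumors.

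The K74R libraries gave the same contrast in samples that the WT fit did not use. There 15691 genes were tested and 9916 (63.2%) differed, 4970 (31.7%) higher in MSC and 4946 (31.5%) higher in tumor. Of the 5324 genes higher in WT MSC 4102 were also higher in K74R MSC (77.0% of the WT and 82.5% of the K74R genes), and of the 5840 higher in WT tumor 4246 were higher in K74R tumor (72.7% and 85.8%). Called in the opposite direction were 40 and 66 of them. All 45 interferon-stimulated genes were higher in K74R tumor, with a median of -3.45, and 17 of 18 contractile genes were higher in K74R MSC. Cxcl12 stood at 1556 and 3081 CPM in K74R MSC and 3.96, 18.3 and 12.6 CPM in K74R tumors.

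The difference of the contrast between genotypes was tested as an interaction over these 10 libraries. It was called for 1274 of 16535 genes (7.7%), with the log2 fold change larger in K74R for 848 (5.13%) and smaller for 426 (2.58%). Among proliferation genes, 31 of 32 mitosis genes and 30 of 34 DNA replication genes had a larger value in K74R, which means a smaller gap to the tumor. Top2a stood at 305 and 372 CPM in K74R MSC and 1242, 1164 and 1088 CPM in K74R tumors, so the K74R MSC libraries stood above both WT MSC libraries. The median log2 fold change of the mitosis list was -1.21 in K74R and -3.78 in WT. The 5 genes with the smallest interaction p and a larger value in K74R were Mcm6, a helicase subunit, Hjurp, which loads the centromere histone, the mitotic kinases Aurkb and Nek2, and Birc5, which encodes survivin. Aurkb stood at 5.35 and 5.69 CPM in WT MSC and 31.8 and 29.2 CPM in K74R MSC, with 75.6, 70.04 and 79.5 CPM in WT tumors and 75.6, 72.2 and 72.2 CPM in K74R tumors (interaction 2.5 on the log2 scale, edgeR adjusted p = 5.69e-05). The 5 leading genes with a smaller value were Cxcr4, the receptor of Cxcl12, Npl, Rasal2, Tmem8 and Wdfy1. Cxcr4 stood at 206 and 149 CPM in WT MSC and 7.53 and 4.03 CPM in K74R MSC, with 5.65, 10.01 and 6.34 CPM in WT tumors and 6.39, 5.79 and 7.53 CPM in K74R tumors (interaction -4.77, edgeR adjusted p = 2.00e-04). Endothelial genes differed the other way in 15 members, and their K74R median was -2.43. Their summed level was 310 and 580 CPM in K74R MSC and 250, 314 and 287 CPM in K74R tumors. On the sum, K74R MSC thus did not lie below the tumors. Pecam1 stood at 3.65 and 2.99 CPM in K74R MSC and 32.7, 37.7 and 34.4 CPM in K74R tumors, below the tumors in K74R and above them in WT. The macrophage sum was 10577 and 14367 CPM in K74R MSC, below both WT MSC libraries, and 5 macrophage genes had a smaller value in K74R. The counts of this test depended on single libraries: 541 and 167 genes without K74R MSC 1, and 1556 and 899 without K74R MSC 2. Without WT tumor 1, 2 or 3 they were 495 and 222, 543 and 229, and 560 and 234. Without K74R tumor 1, 2 or 3 they were 557 and 297, 573 and 257, and 624 and 307. With the replicate numbers as a block they were 571 and 282.

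**Figure D4:**
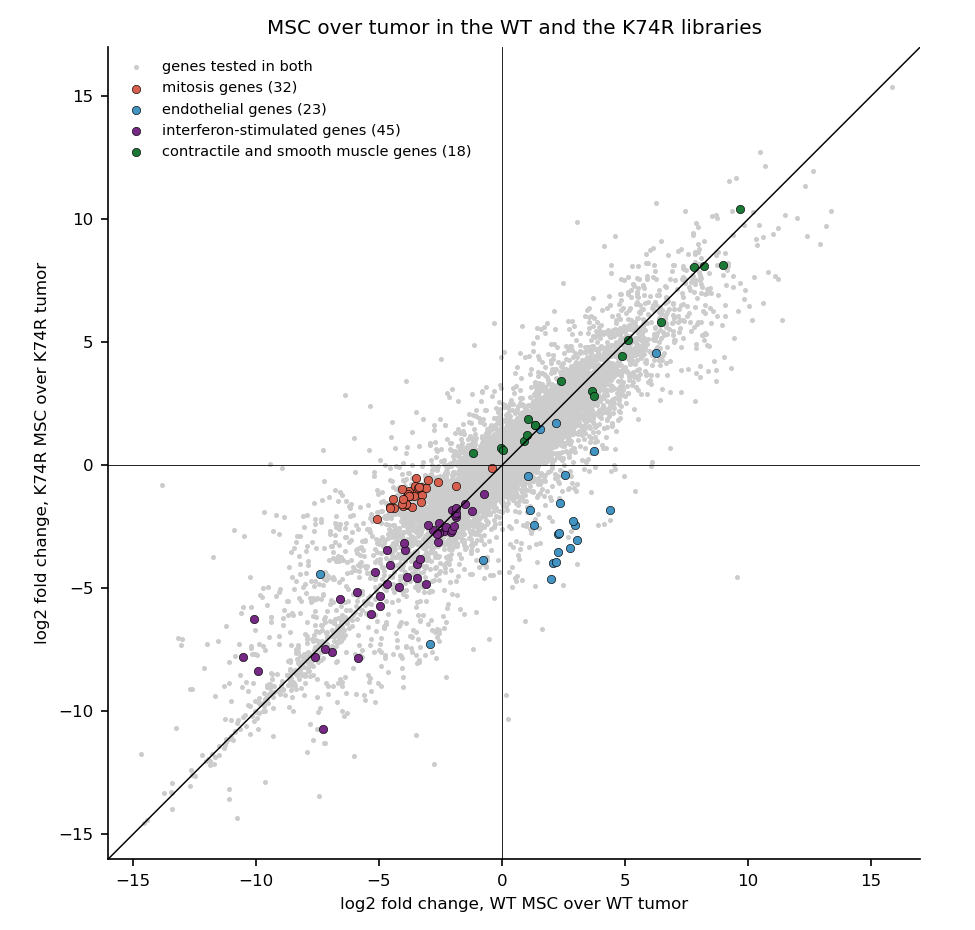
Log2 fold change of MSC over tumor in the WT libraries (horizontal axis) and the K74R libraries (vertical axis), 1 point for each gene tested in both, with the diagonal. Interferon-stimulated and contractile genes lie along the diagonal, mitosis genes lie above it at WT values mostly between -5 and -2, and many endothelial genes are above 0 in WT and below 0 in K74R.

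**Figure D5:**
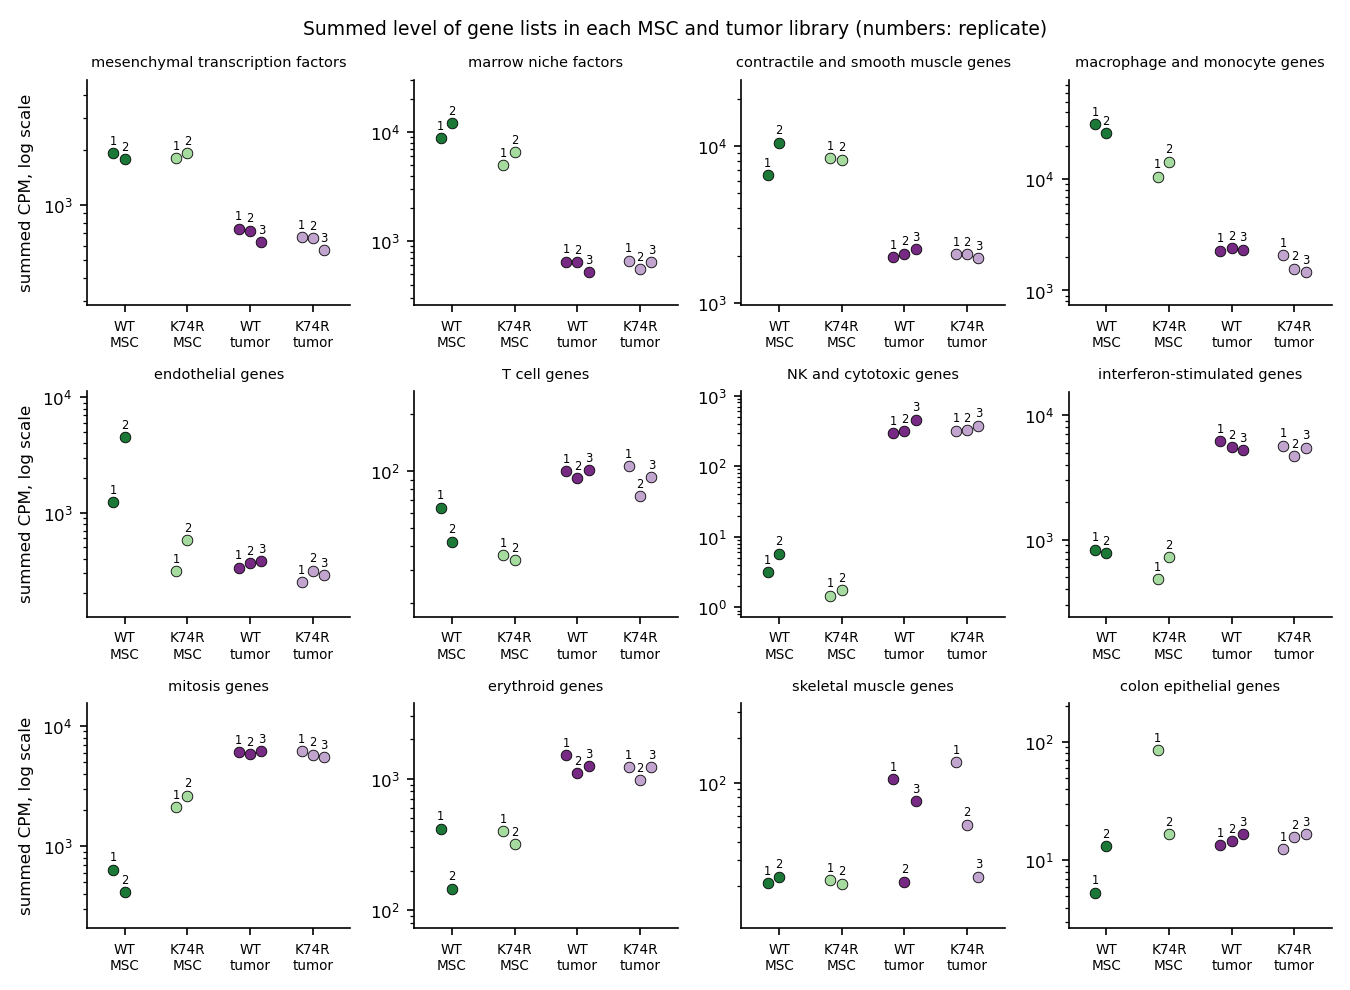
Summed CPM of 12 gene lists in each MSC and tumor library of both genotypes, on log axes that do not start at 0, with the replicate number above each point. Endothelial genes separate WT MSC 2 from WT MSC 1, mitosis genes separate the genotypes of MSC, and skeletal muscle genes vary among the tumors.

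Medians differed by position and gene class. The median log2 fold change was 1.58 for the 7 genes tested on chromosome Y and -0.57 for the 23 on the mitochondrial genome. Among the autosomes it was 0.28 for the 1203 genes tested on chromosome 7 and 0.21 for the 412 on chromosome 18, and -0.41 for the 829 on chromosome 8, against -0.09 over all genes. The K74R libraries gave 0.25, 0.21 and -0.37 for chromosomes 7, 18 and 8. Long intergenic noncoding RNAs had a median of -0.68 over 428 genes and processed pseudogenes -0.72 over 413, against -0.05 for the 13669 protein-coding genes. Pseudogenes resemble their parent genes, so their counts may hold reads of those.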

How the data were processed

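Polyadenylated RNA was sequenced from bone marrow, MSC and tumor. The authors deposited 1 table of raw counts, by gene and library, for 16 libraries. Per the submitters' processing notes, Trimmomatic 0.38, HISAT2 2.1.0 and featureCounts 1.6.0 were used with GRCm38; the annotation release, strand setting and treatment of multi-mapping reads, each not given in the sources used here, leave it unknown how shared reads were counted, and reads of near-identical, overlapping or antisense genes cannot be told apart. All 55536 identifiers matched GENCODE M21, which gave names and lengths.

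Samples were grouped by tissue and genotype labels. The 5 WT libraries were tested with edgeR 4.0.16 (R 4.3.3): low counts removed by filterByExpr, TMM scaling, quasi-likelihood test, Benjamini-Hochberg adjustment over all 15748 genes, threshold 0.05. The same fit was made in K74R, and an interaction over 10 libraries. Scripts were tested on simulated data. CPM use TMM over all 16 libraries, and TPM the exonic union length. Alternatives were other scalings and filters, DESeq2 1.42.0, limma-voom (limma 3.58.1), robust dispersion, all libraries, a replicate block and each library left out. Total counts were 15965993 to 18923751 in the 5 libraries.

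Gene lists, members and motifs were chosen with earlier results of these data known, and no list was tested as a set. Summed levels cover all members of a list found in the count table, tested or not. Genes are named from the 12 largest differences in each direction, marker genes marked as defining, up to 4 abundant called members of each list in each direction, the 10 highest TPM in each group and the 5 smallest interaction p in each direction, unless said otherwise. Bone marrow was used only for scale. Promoters are from RefSeq on GRCm38.p6, and figures were drawn with matplotlib 3.10.9 in Python 3.11.15.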

Additional observations from a re-analysis of the deposited data

Results flagged for a closer look

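For the genes below, the MSC to tumor contrast differed between the genotypes in edgeR's test of that difference at an adjusted p of at most 0.05. Values are the K74R log2 fold change minus the WT one. Among cell cycle genes the differences were 2.77 for Ccnb1, 2.57 for Top2a, 2.64 for Mki67, 2.59 for Kif11, 2.01 for Mcm5, 2.29 for Mcm6, 2.98 for Hjurp, 2.5 for Aurkb, 2.56 for Nek2, 3.06 for Birc5, 0.66 for Pcna and 0.71 for Ptma. Endothelial junction genes gave -6.16 for Pecam1 and -6.17 for Cdh5. Matrix genes gave 1.79 for Col5a1, 2.5 for Col5a3, 1.46 for Timp3 and -3.87 for Mmp13. Stromal, bone, fat and muscle genes gave -3.81 for Thy1, 2.4 for Lepr, 4.04 for Twist2, -6.2 for Hoxb9, -3.02 for Igfbp5, -2.99 for Tnfrsf11b, 3.14 for Pparg, 6.07 for Plin1 and 1.65 for Des. Immune and signalling genes gave 3.38 for Arg1, 2.27 for Ccl2, 4.48 for Cd4, 1.2 for Irf7, 2.16 for Tcf7 and -4.77 for Cxcr4. The remaining leading genes gave -4.08 for Npl, -1.49 for Rasal2, -2.25 for Tmem8 and -2.04 for Wdfy1. Positive values mean that MSC stood higher relative to tumor in K74R than in WT. The genotype effect in each tissue was not separated here. The MSC groups hold 2 libraries each, and the WT pair differed from each other by more than the tumors did.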

How the results depend on the processing

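The numbers of genes called in WT and in K74R stayed within 1.5 times of those reported under every alternative run for them. For WT these were 3 other scalings, 2 other filters, DESeq2, limma-voom, robust dispersion, all 16 libraries, removal of mitochondrial, X and Y genes, a replicate block and each library left out. Of 173 genes named with a fit, 154 were called, and 145 of them stayed called in the same direction under every alternative with a value. Col4a1, Col4a2 and Thy1 changed direction without MSC 2, to -0.61, -0.52 and -1.25, and were 0.95, 1.04 and 1.22 without MSC 1, and the cause was not tested. The interaction counts moved more: with single libraries left out they ranged from 495 to 1556 for larger and from 167 to 899 for smaller values in K74R, and DESeq2 gave 836 smaller. The share of mitosis promoters with TTTGAA was 40.0% before the start alone. No label pairs the samples by replicate number, and the deviations of same-numbered MSC and tumor libraries correlated at 0.018 and 0.0134. With 2 MSC libraries the deviations of MSC 2 mirror those of MSC 1, so these values cannot decide whether samples were paired. With the replicate numbers as a block 4614 genes were higher in WT MSC and 5140 in WT tumor, and 282 interaction values were smaller. Where a library left out leaves 1 MSC sample, that sample is assumed to vary like the tumors. Depth limits genes near 0: differences below the 0.148 to 0.203 CPM that 3 counts amount to were not detectable in a library.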

Other observations

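Other leukocyte classes were measured with fewer genes. Of 14 dendritic cell genes tested 10 were higher in tumor and 2 in MSC. All 16 members of the list summed to 695, 662 and 722 CPM in the tumors and 371 and 604 CPM in MSC. Of 12 neutrophil genes tested 6 were higher in tumor and 4 in MSC. The number higher in MSC was 2 without tumor 1 or without tumor 2. All 19 members of the list summed to 291 and 186 CPM in MSC and 103, 114 and 124 CPM in the tumors. Cxcr4, a member that other leukocytes express too, made up most of that sum in both MSC libraries, so the sum does not stand for the list. The sum of 15 genes of mast cells, basophils and eosinophils, 8 of them tested, was 88.9 CPM in MSC 2 and 29.9 CPM in MSC 1. In the tumors it was 25.3, 29.1 and 30.8 CPM. Of 25 chemokine genes tested 13 were higher in tumor and 7 in MSC. All 28 members of the list, which include Cxcl12, summed to 5678 and 9754 CPM in MSC and 1016, 826 and 1063 CPM in the tumors. Of 18 immediate early and heat shock genes 8 (44.4%) were higher in MSC and 5 (27.8%) in tumor, beside 33.8% and 37.1% of all genes tested. Their median log2 fold change was 0.77, but -0.32 without MSC 1 and 0.95 without MSC 2, so its direction depended on MSC 1. The list summed to 1248 and 772 CPM in MSC and 1128, 1017 and 1146 CPM in tumors.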
